A study of Mus musculus with 32 samples.

Results

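The genes described here encode the plasminogen activators, their receptor and serpins linked to them: Plat, Plau, Plaur, Serpine2, Serpinb2, Serpinf1 and Serpinf2. These 7 genes were chosen by name from the 50600 genes of the series, and all 7 had a row in both the count table and the abundance table. RNA was measured in 32 primary mouse melanomas in 4 groups of 8, Ecad and ΔEcad tumours of males and of females. All groups carried the Tyr::NrasQ61K transgene, which drives an oncogenic NRAS in pigment cells, had lost 1 copy of Cdkn2a (a tumour suppressor gene) and were Cdh1F/F, with both alleles of the E-cadherin gene open to deletion by Cre recombinase. Ecad mice had no further allele (°/°). ΔEcad mice carried, by the methods of the study, a Cre transgene under the Tyr promoter, which the paper describes as deleting Cdh1 in melanocytes. Cells in which Cre is not active keep Cdh1. The genotype labels of the ΔEcad tumours write Tyr::NRAS/° in that place. No ages were given in the labels, and each tumour is a bulk sample that holds non-tumour cells.

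Plasminogen is a circulating zymogen that tissue-type plasminogen activator (tPA, from Plat) or urokinase (uPA, from Plau) cleaves to the protease plasmin, which dissolves fibrin, degrades matrix proteins and activates other proteases. Urokinase works mainly at the cell surface, bound to its receptor (from Plaur), and tPA works mainly on fibrin. The serpins are suicide inhibitors of serine proteases. Serpine2 (protease nexin-1) and Serpinb2 (plasminogen activator inhibitor-2) block activators, Serpinf2 (alpha-2-antiplasmin) blocks plasmin, and Serpinf1 (pigment epithelium-derived factor) has the serpin fold but inhibits no protease. In melanoma and skin the system is known for its part in invasion, wound repair and the turnover of the epidermis.

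Plaur and Serpinb2 varied together across the tumours, as did Plau with Serpinf1 and Plat with Serpine2. From these pairs, upstream stretches listed by RefSeq are shown for Plaur, Serpinb2 and Serpine2. Whether letters in them have a part in these relations was not tested. RefSeq promoters (GRCm38.p6) were matched for 5 of the 7 genes, all but Plat and Plau. Printed are the 250 bases before the start of Plaur (chr7:24462233-24462482, plus strand), Serpinb2 (chr1:107511173-107511422, plus strand) and Serpine2 (chr1:79858666-79858915, minus strand), 5′ to 3′, with capitals for matches to the letters searched.
Plaur: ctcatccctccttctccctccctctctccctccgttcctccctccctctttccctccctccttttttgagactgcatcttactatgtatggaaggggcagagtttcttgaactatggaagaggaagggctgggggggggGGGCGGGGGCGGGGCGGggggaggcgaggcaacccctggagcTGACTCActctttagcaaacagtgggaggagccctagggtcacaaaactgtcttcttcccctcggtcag
Serpinb2: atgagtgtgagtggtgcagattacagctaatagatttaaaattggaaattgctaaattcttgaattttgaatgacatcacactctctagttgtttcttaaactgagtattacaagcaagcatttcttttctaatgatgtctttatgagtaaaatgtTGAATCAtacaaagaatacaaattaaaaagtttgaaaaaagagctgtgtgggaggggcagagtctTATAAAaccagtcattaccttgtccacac
Serpine2: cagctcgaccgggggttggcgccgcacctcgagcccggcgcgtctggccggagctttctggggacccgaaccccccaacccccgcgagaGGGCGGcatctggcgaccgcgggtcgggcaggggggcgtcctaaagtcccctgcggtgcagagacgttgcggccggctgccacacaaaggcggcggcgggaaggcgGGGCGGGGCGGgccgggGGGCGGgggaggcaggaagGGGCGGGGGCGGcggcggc
Both strands of 300-base windows, which run from 250 bases before to 50 after each start, were searched for 5 motifs. The letters of AP-1, TGANTCA, occurred in Plaur, from 69 bases before the start, and in Serpinb2, from 94 bases before it, and 7.81% of 32851 mouse promoters hold them. The core promoter letters TATAAA stood 29 bases before the start of Serpinb2 and are held by 13.6% of promoters. Those of Sp1, GGGCGG, occurred 3 times in Plaur and 6 times in Serpine2, some of these runs sharing letters with the next, and 35.7% of promoters hold them. The E-box letters CACGTG (in 7.15% of promoters) and those of TEAD, GGAATG (in 14.7%), were in none of the windows, and the windows of Serpinf1 and Serpinf2 held none of the letters searched. G and C made up 77.7% of the Serpine2 window, more than in most promoters (percentile 98.1), and 35.3% of the Serpinb2 window (percentile 4.3). RefSeq lists a second start of Serpinb2, at 107511510, from which the TATAAA letters lie 116 bases upstream and the AP-1 letters 181, and whose window is 39.3% G and C (percentile 9.48). The start used for Serpine2, 79858665, lies inside the GENCODE span of that gene, 79794197 to 79861180. The stretch printed for Serpine2 is thus within that span and not upstream of it.

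Total counts per tumour ranged from 24036333 to 63923086 (median 34684496.5). Cdh1 RNA, the check of the deletion, ranged from 25.0 to 281.9 TPM (an abundance corrected for gene length and depth) in Ecad males and from 0.79 to 65.2 TPM in ΔEcad males, but from 2.16 to 151.2 TPM in Ecad females and from 0.17 to 143.2 TPM in ΔEcad females, so it did not separate the female genotypes. The library labelled ΔEcad male 2 had 0 counts over 4 Y-linked genes, against 1931 to 8800 in the other ΔEcad males, and 6.41 TPM of Xist, against at most 0.04. ΔEcad male 7 had 4.98 TPM of the melanocyte gene Dct, where the median tumour had 11260 TPM, and ΔEcad female 3 had the lowest macrophage, endothelial and neutrophil scores. Such a score is the mean log2 CPM (count per library, scaled to a common total) over a list of markers. Values that leaving out 1 of them turned or moved most are given without it.

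The activators were expressed in every tumour. Plat (ENSMUSG00000031538, chromosome 8, 22757727 to 22782844, GRCm38) had a median of 61.2 TPM over the 32 tumours and a range of 6.72 to 801.8 TPM. Its level ran from 34.0 to 164.3 TPM in Ecad males (median 65.1) and from 9.18 to 385.3 TPM in ΔEcad males (median 43.9). In females it ran from 6.72 to 801.8 TPM in Ecad tumours (median 69.0) and from 17.6 to 514.4 TPM in ΔEcad tumours (median 66.3). The 4 groups overlapped nearly throughout, and the highest values belonged to 1 tumour each, Ecad female 5 and ΔEcad female 8. Only 0.462% of the variance of Plat in log2 CPM lay between the groups, against a median of 9.9% over the 17717 genes tested. This was the lowest share of the 7 genes. It was 4.7% for Serpinf2, 6.05% for Serpine2 and 10.7% for Serpinf1. The share was 11.4% for Plau, 15.5% for Plaur and 21.9% for Serpinb2.

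Plau (ENSMUSG00000021822, chromosome 14, 20836660 to 20843385) was lower, with a median of 32.8 TPM and a range of 5.42 to 327.3 TPM. It ran from 13.6 to 60.6 TPM in Ecad males (median 32.8) and from 14.0 to 327.3 TPM in ΔEcad males (median 43.6). In Ecad females it ran from 5.42 to 117.1 TPM (median 24.0), and in ΔEcad females from 13.9 to 91.6 TPM (median 39.4). The value of 327.3 TPM belonged to ΔEcad male 7, the tumour with few melanocyte transcripts, and the mean of the other ΔEcad males was 37.7 TPM. Plat exceeded Plau in 22 of the 32 tumours on the TPM scale. The ratio of Plat to Plau ranged from 0.194 to 32.1, with a median of 1.61.

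Plaur (ENSMUSG00000046223, chromosome 7, 24462484 to 24475968) lay below both activators in median level, at 17.2 TPM, and ranged from 2.58 to 101.4 TPM. It ran from 11.6 to 58.4 TPM in Ecad males (median 25.8) and from 8.28 to 66.5 TPM in ΔEcad males (median 16.7). The Ecad females ran from 2.58 to 101.4 TPM (median 9.27), and the ΔEcad females from 6.87 to 29.6 TPM (median 18.9). Ecad female 4 alone held the top of the range, the next Ecad female being at 23.95 TPM. Transcripts of the receptor exceeded those of its ligand Plau in 6 of the 32 tumours.

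Serpine2 (ENSMUSG00000026249, chromosome 1, 79794197 to 79861180, minus strand) had a median of 44.8 TPM, the highest of the inhibitors of activators. Ecad males kept within 24.8 to 81.7 TPM (median 30.3), while ΔEcad males ran from 17.9 to 363.0 TPM (median 50.7). Ecad females spanned 7.97 to 460.4 TPM (median 42.4) and ΔEcad females 13.4 to 410.6 TPM (median 52.5). The highest Ecad male lay below the 3 highest tumours of ΔEcad males and of Ecad females, but the lower parts of all groups overlapped. Serpine2 exceeded the sum of Plat and Plau in 6 of the 32 tumours, 3 of them Ecad females and none of them Ecad males.

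Serpinb2 (ENSMUSG00000062345, chromosome 1, 107511423 to 107535478) had the widest spread. Its standard deviation of 3.05 in log2 CPM was above that of most tested genes (percentile 96.9, median gene 0.868), and its level ran from 0 to 75.3 TPM. It ran from 0.41 to 47.5 TPM in Ecad males (median 23.2) and from 0.2 to 18.2 TPM in ΔEcad males (median 6.18). In Ecad females the median was 0.265 TPM, 2 tumours were at or under 3 counts, and Ecad female 4 held 75.3 TPM. In ΔEcad females it ran from 0.18 to 49.3 TPM (median 12.4). Most Ecad females thus lay at the bottom of the range, and Ecad female 4 was the highest of all 32 tumours. Serpinb2 overlaps Serpinb10 on the same strand, so its counts are uncertain to the extent that reads of Serpinb10 (at most 525 counts in a tumour) were shared.

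Serpinf1 (ENSMUSG00000000753, chromosome 11, 75409769 to 75422701, minus strand) was the most abundant of the 7 genes, with a median of 110.4 TPM, above most genes detected (percentile 94.6 of 21883). It ran from 32.9 to 225.1 TPM in Ecad males (median 97.3) and from 40.0 to 958.2 TPM in ΔEcad males (median 121.6). It ran from 13.4 to 379.5 TPM in Ecad females (median 96.3) and from 47.7 to 1405 TPM in ΔEcad females (median 133.0). The extremes were ΔEcad female 3 and ΔEcad male 7, and without them the means of their groups were 102.6 and 138.8 TPM, so the groups overlapped. Serpinf2, its neighbour 9030 bases away on the same strand, was close to absent, at 0 to 0.99 TPM and 0 to 25 counts in a tumour. It failed the filter on low counts. The plasmin inhibitor and its non-inhibitory neighbour thus stood at opposite ends of the 7 levels.

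**Figure D1:**
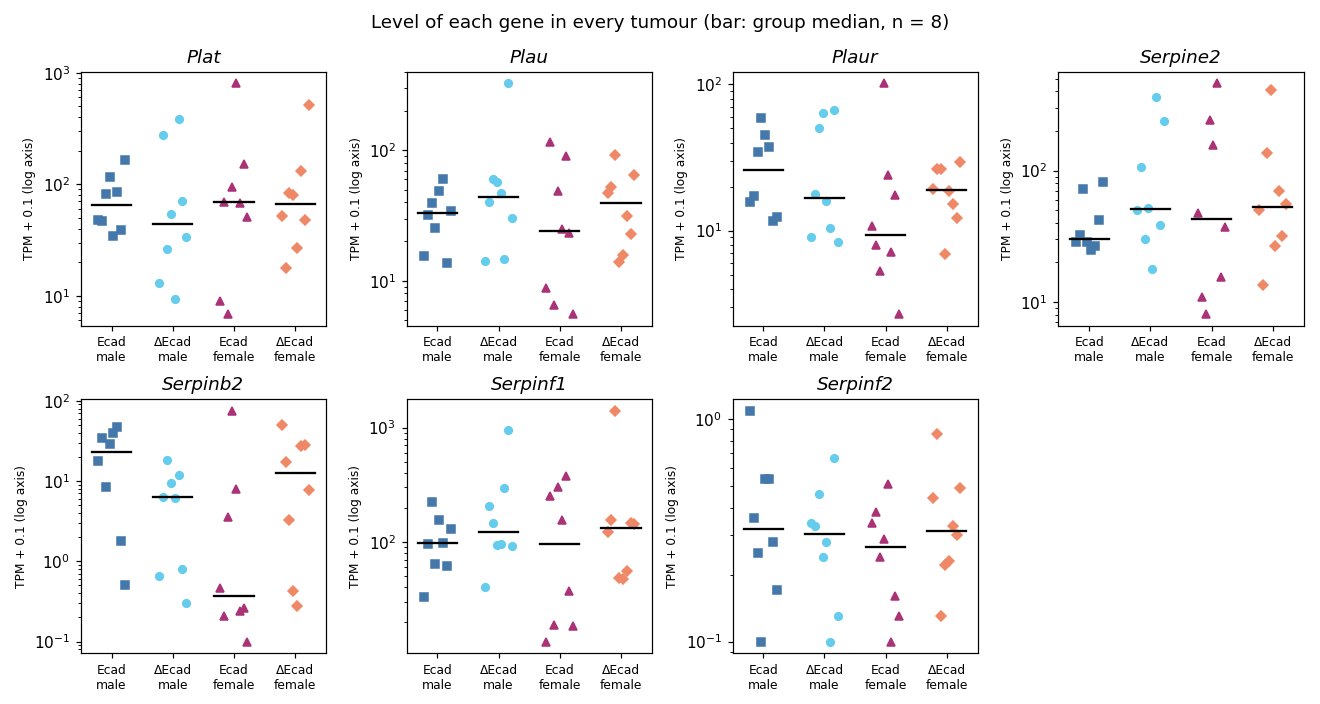
Level of each gene in each of the 32 tumours, as TPM + 0.1 on a log axis, by group (8 tumours each), with a bar at the group median. The groups overlap for every gene, Serpinf1 is highest with an overall median of 110.4 TPM, and the median of Serpinb2 is lowest in Ecad females, at 0.265 TPM.

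The deletion of Cdh1 was examined within each sex. A gene was called where its edgeR p, adjusted over all genes, was under 0.05 and its log2 fold change over 1 in size. By edgeR 0 of the 6 tested genes were called in females, where 1.2% of the 17717 genes were, and 0 of the 6 in males, where 0% of all genes were. DESeq2, limma voom and limma on log2 TPM also called 0 of the 6 in either sex. Over all genes DESeq2 called 1548 of 33460 in females and 37 in males, while both limma fits called 1 of 17717 in females and 0 in males. At an unadjusted p under 0.05 these tools had 1 of the 6 genes in females (Serpinb2, limma voom) and 2 in males (Plau and Serpine2, DESeq2). The share of all genes at that level is not reported here for these tools, so nothing is read from these counts. By edgeR there were 0 at that level in females (15.3% of all genes) and 2 in males (10.2% of all genes), Serpine2 and Plau.

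In males the log2 fold change of Serpine2, ΔEcad against Ecad, was 1.79 (SE 0.81, edgeR p 0.0349, adjusted p 0.470), with a 95% confidence interval of 0.13 to 3.45. It was 1.79 without the library labelled ΔEcad male 2 and 1.94 without ΔEcad male 7. With each tumour left out in turn it ran from 1.29 to 2.08 (edgeR adjusted p 0.304 to 0.654). Its lowest value under any alternative was 0.85. The difference in mean log2 CPM was 1.08 (exact permutation p 0.130, adjusted p 0.689). In females it was -0.32 (SE 0.79, edgeR adjusted p 0.906) and turned to 0.60 without Ecad female 6. The difference between the sexes in this genotype effect was -2.11 (SE 1.13, edgeR adjusted p 0.327), with an interval from -4.42 to 0.19, so it did not pass.

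In males the value for Plau was 1.17 (SE 0.56, edgeR p 0.0444, adjusted p 0.483). Without ΔEcad male 7 this was 0.39 (edgeR adjusted p 0.787), so the value rested largely on that tumour. In females it was -0.04 (SE 0.55), with an interval from -1.18 to 1.09, and 0.36 without Ecad female 6.

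Plat gave -0.55 (SE 0.81) in females and 0.77 (SE 0.81) in males, neither past the test (edgeR adjusted p 0.833 and 0.743). The female value turned to 0.67 without Ecad female 5, and the male value was 0.12 without ΔEcad male 6 and 1.11 without Ecad male 8. Serpinf1 gave 0.69 (SE 0.71) in females and 1.26 (SE 0.72) in males (edgeR adjusted p 0.733 and 0.538). The female value turned to -0.55 without ΔEcad female 3, and the male value was 0.67 without ΔEcad male 7. Plaur gave -0.16 (SE 0.52) in females, 0.75 without Ecad female 4, and 0.09 (SE 0.52) in males. For each of these genes 1 tumour thus decided the sign of the female value.

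Serpinb2 gave 0.75 (SE 1.17, edgeR adjusted p 0.845) in females and -1.55 (SE 1.20, edgeR adjusted p 0.648) in males. Without Ecad female 4 the female value was 3.19 (SE 1.19, edgeR adjusted p 0.156). Of the 8 ΔEcad females, 7 lay above the median of the Ecad females, and the difference in mean log2 CPM was 2.92 (exact permutation p 0.103 over all splits of the 16 tumours, two-sided, adjusted p 0.689). The keratinocyte score moved with this gene: in females its mean was 5.65 higher in ΔEcad tumours (exact permutation p 0.0423, adjusted p 0.237 over 28 scores compared). With the keratinocyte and melanocytic scores as covariates, the female value was -1.92 (SE 1.79). For Serpinf2, tested by exact permutation alone, the differences in mean log2 CPM were 0.71 (exact p 0.233) in females and -0.15 (exact p 0.83) in males, at counts near the floor of 3.

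**Figure D2:**
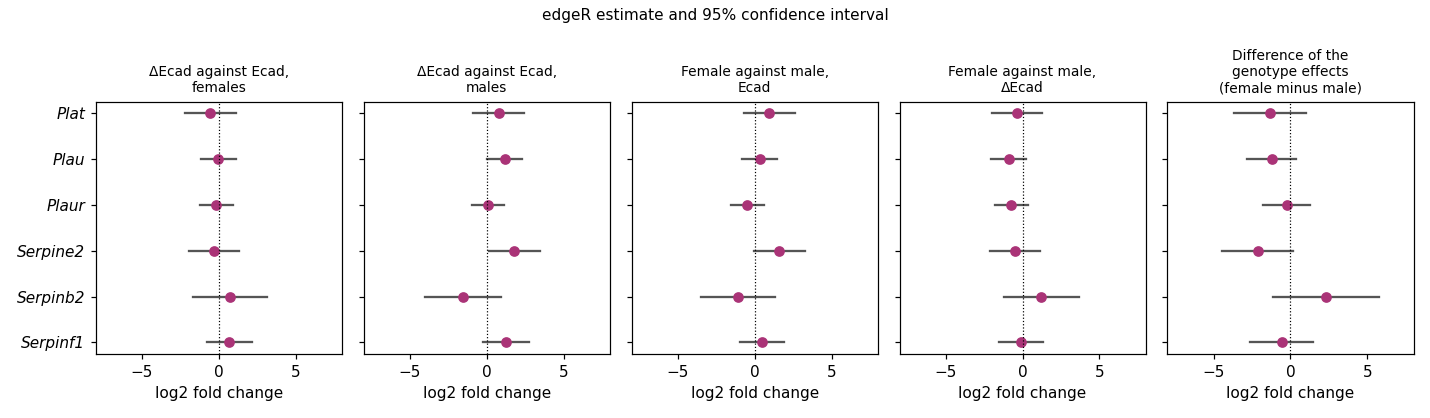
Log2 fold change of the 6 tested genes in the 5 comparisons, as the edgeR estimate (point) and its 95% confidence interval (line), with 0 dotted. The intervals of Serpine2 (0.13 to 3.45) and Plau (0.03 to 2.32) in males lie above 0, with adjusted p of 0.470 and 0.483, and all the others cross it.

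The sexes were compared within each genotype, with the same tumours as above. Among Ecad tumours, 0 of the 6 genes were called by edgeR (0.0508% of all genes), and 0 had an unadjusted p under 0.05 (16% of all genes). Among ΔEcad tumours, 0 were called (0.0395% of all genes), and 0 had an unadjusted p under 0.05 (8.81% of all genes). For the interaction of genotype and sex, 0 were called (0% of all genes), and 0 had an unadjusted p under 0.05 (17.7% of all genes). The 3 other tools called 0 of the 6 in each, with 1 to 2 genes at an unadjusted p under 0.05 in Ecad tumours and 1 in the interaction, from Serpine2, Plaur and Serpinb2. For these tools too, nothing is read from the unadjusted counts, as the share of all genes is not reported here. Over all genes the tools lay far apart: DESeq2 called 1159 between the sexes in Ecad, 44 in ΔEcad and 1457 in the interaction, limma voom 115, 6 and 0, and limma on log2 TPM 9, 8 and 1.

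For Serpinb2, the difference in mean log2 CPM and the fitted fold change lay far apart. In Ecad tumours its mean log2 CPM was -0.67 in females and 3.13 in males, a difference of -3.80 with an exact permutation p of 0.0300 (two-sided) and an adjusted p of 0.689 over the 28 differences computed. Only 1 of the 8 Ecad females, number 4, lay above the male median. The fold change fitted to the counts was -1.08 on the log2 scale (SE 1.18, edgeR adjusted p 0.690), and it was -3.52 (SE 1.21, edgeR adjusted p 0.170) without it. The keratinocyte score moved alongside, with a difference of -7.09 between Ecad females and Ecad males (exact permutation p 0.00622, adjusted p 0.131), and Krt14 had a median of 0.195 TPM in the former and 1604 TPM in the latter. With keratinocyte and melanocytic scores as covariates, the edgeR value was 1.65 (SE 1.80, adjusted p 0.990). In ΔEcad tumours Serpinb2 gave 1.22 (SE 1.19, edgeR adjusted p 0.797).

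Serpine2 gave 1.60 (SE 0.81, edgeR adjusted p 0.330) in Ecad females against Ecad males, and 0.68 without Ecad female 6. In ΔEcad tumours it gave -0.51 (SE 0.79, edgeR adjusted p 0.891). The other genes gave 0.96 (SE 0.81) for Plat, 0.32 (SE 0.55) for Plau, -0.47 (SE 0.52) for Plaur and 0.48 (SE 0.71) for Serpinf1 in Ecad tumours, none past the test. Without Ecad female 4 the value of Plaur was -1.39 (SE 0.44, edgeR adjusted p 0.162). In ΔEcad tumours Plau gave -0.90 (SE 0.56), and -0.12 without ΔEcad male 7. Plat, at -0.36 (SE 0.80) there, became 0.08 without the library labelled ΔEcad male 2.

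Although the groups did not separate them, the genes varied with each other over the 32 tumours. Of 21 pairs, 5 passed an adjusted p of 0.05 by permutation of Pearson's r (100000 draws), 4 of them positive. Plau and Serpinf1, the activator and the abundant non-inhibitory serpin, went together most closely. Their r was 0.81 (permutation p 1e-05, the smallest the draws can give, adjusted p 0.00021) and rho 0.742 (permutation p 1e-05). It was 0.75 without the 2 tumours farthest in Plau, and 0.788 with the group means taken out (permutation p 1e-05). The fibroblast score moved with both genes, as given below, and its part in the relation was not tested. In bulk samples fewer cells of a type and less RNA per cell cannot be told apart.

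Plaur and Serpinb2 had r 0.591 (permutation p 0.0003, adjusted p 0.00315) and rho 0.571 (permutation p 0.00077). It was 0.45 without the 2 farthest tumours and 0.541 with the group means out (permutation p 0.00136). The fibroblast and neutrophil scores moved with both genes, as given below, and their part in the relation was not tested. Plau and its receptor gene Plaur had r 0.529 (permutation p 0.00174, adjusted p 0.0122) and rho 0.502 (permutation p 0.00369). This fell to 0.347 without ΔEcad male 7 and Ecad female 8, so it rested in part on those tumours, and was 0.502 with the group means out (permutation p 0.0031). Plat and Serpine2, the tissue activator and an inhibitor of it, had r 0.498 (permutation p 0.00367, adjusted p 0.0193) and rho 0.546 (permutation p 0.00136). It was 0.5 without the 2 farthest tumours and 0.523 with the group means out (permutation p 0.00227). The pair of activators, Plat and Plau, had r 0.195 (permutation p 0.284, adjusted p 0.497) and rho 0.13 (permutation p 0.476).

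**Figure D3:**
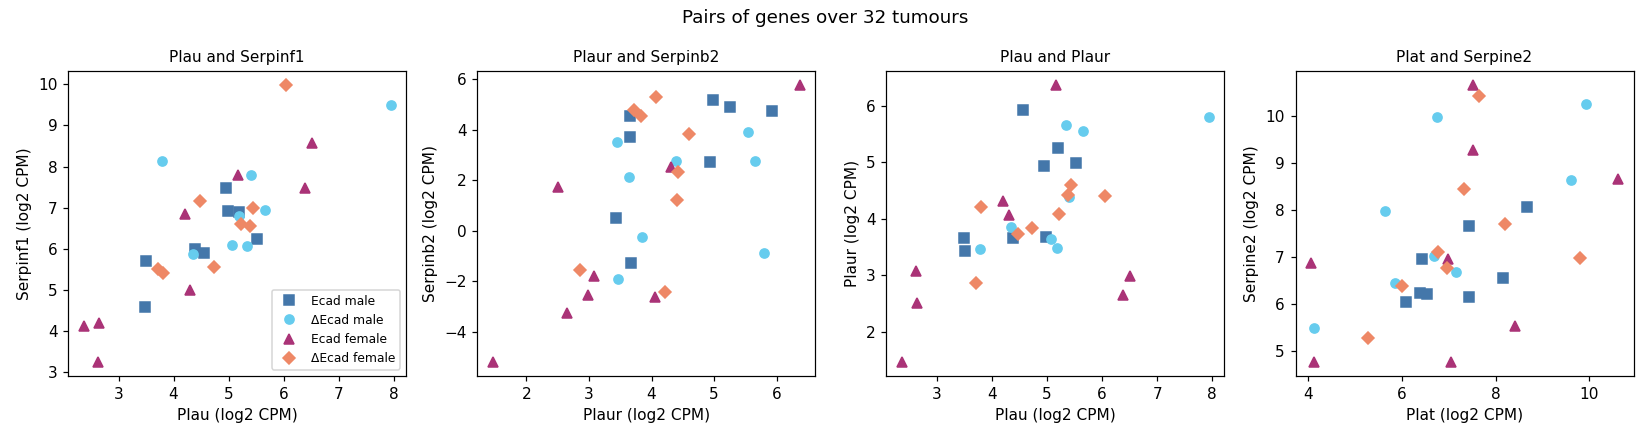
Log2 CPM of 4 pairs of genes in the 32 tumours, with 1 symbol per group. Plau and Serpinf1 follow one line (r 0.81), Plaur and Serpinb2 (r 0.591), Plau and Plaur (r 0.529) and Plat and Serpine2 (r 0.498) scatter more widely, and symbols of all groups are mixed.

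The fifth pair, Serpine2 and Serpinf2, had r -0.456 (permutation p 0.00892, adjusted p 0.0375) and rho -0.379 (permutation p 0.0338, adjusted p 0.116). It was -0.375 without the 2 farthest tumours. Serpinf2 had at most 25 counts, and the relation is reported as a value only.

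Markers of other cell types were compared with the genes to describe what varied alongside. Over all 32 tumours the keratinocyte score had r 0.728 with Serpinb2 (permutation p 2e-05, adjusted p 0.000294) and rho 0.702. With Serpinf2, at 25 counts or fewer, its r was 0.481 (permutation p 0.00498, adjusted p 0.0244). The scores were then cut at their widest gap, 19% of the range, as any set of scores can be. This gave a low cluster of 14 tumours at -3.96 to 1.41 and a high cluster of 18 at 4.07 to 10. Relations with the score were computed within each. The low cluster held 6 of the Ecad females, 1 of the Ecad males, 4 of the ΔEcad males and 3 of the ΔEcad females. Of 14 relations, 1 passed, that of Serpinb2 in the high cluster, with r 0.796 (permutation p 6e-05, adjusted p 0.00084, n = 18) and rho 0.8 (permutation p 0.00014). It was 0.709 without the 2 farthest tumours. In the low cluster r was 0.309 (permutation p 0.282, adjusted p 0.638, n = 14) and rho 0.13 (permutation p 0.663). Serpinb2 had a median of 17.5 TPM in the high cluster and 0.35 TPM in the low one, where Ecad female 4 stood apart at 75.3 TPM with a keratinocyte score among the lowest.

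With the 6 other lists, 8 of 42 relations passed (adjusted over 49), 7 of them positive. The fibroblast score went with 4 of the genes. Its r was 0.76 with Plaur (permutation p 1e-05, adjusted p 0.000245) and rho 0.739 (permutation p 1e-05), 0.74 without the 2 farthest tumours and 0.729 with the group means out. Its r was 0.716 with Plau (permutation p 1e-05, adjusted p 0.000245) and rho 0.625 (permutation p 0.00022), 0.687 without the 2 farthest. Its r was 0.663 with Serpinf1 (permutation p 3e-05, adjusted p 0.000294) and rho 0.595 (permutation p 0.00048), 0.638 without the 2 farthest. Fibroblasts are a known source of urokinase and of pigment epithelium-derived factor. With Serpinb2 the fibroblast r was 0.59 (permutation p 0.00034, adjusted p 0.00278) and rho 0.666 (permutation p 7e-05), 0.499 without the 2 farthest. Within the low and high keratinocyte clusters the fibroblast r was 0.801 and 0.656 for Plaur, 0.743 and 0.769 for Plau, 0.763 and 0.649 for Serpinf1, and 0.602 and 0.506 for Serpinb2.

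**Figure D4:**
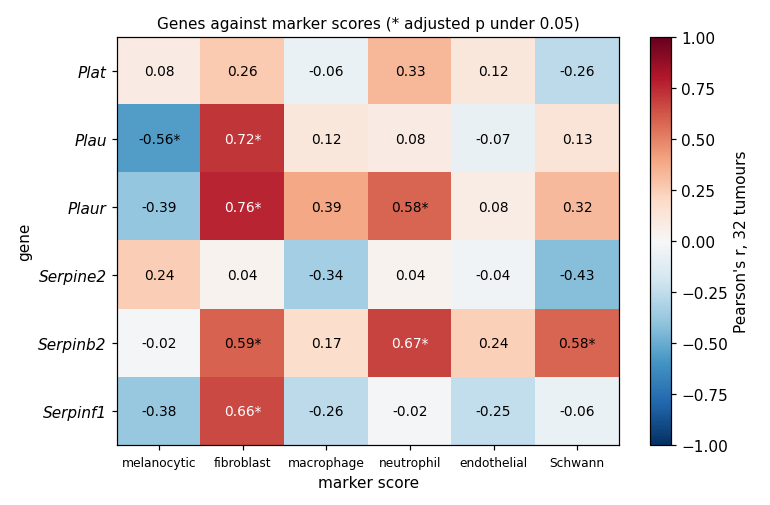
Pearson's r of 6 of the genes with 6 marker scores over the 32 tumours, with an asterisk at an adjusted p under 0.05. Plau, Plaur, Serpinb2 and Serpinf1 have r of 0.59 to 0.76 with the fibroblast score, and Plat and Serpine2 have no asterisk.

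The neutrophil score went with Plaur and Serpinb2, the receptor being a surface protein of myeloid cells. For Plaur r was 0.584 (permutation p 0.00053, adjusted p 0.00343) and rho 0.603 (permutation p 0.00032), 0.65 without the 2 farthest tumours and 0.556 with the group means out. For Serpinb2 r was 0.673 (permutation p 3e-05, adjusted p 0.000294) and rho 0.769 (permutation p 1e-05), 0.755 without the 2 farthest and 0.665 with the group means out. With the macrophage score Plaur had r 0.385 (permutation p 0.0303, adjusted p 0.104) and rho 0.452 (permutation p 0.00997, adjusted p 0.0407), and r was 0.617 without ΔEcad female 3 and 0.316 with the group means out. For Plaur and Serpinb2 the neutrophil r was 0.59 and 0.63 within the low cluster, and 0.53 and 0.56 within the high cluster, with no p computed. Ecad female 4, in the low cluster, had the highest neutrophil score (7.69), Plaur (101.4 TPM) and Serpinb2 (75.3 TPM) of all tumours. The low cluster was not computed without it. Serpinb2 also had r 0.581 with the Schwann cell score (permutation p 0.00056, adjusted p 0.00343) and rho 0.608 (permutation p 0.00032), 0.538 without the 2 farthest. That relation was 0.032 within the low cluster and 0.563 within the high one, so it did not hold in both. Plau had r -0.56 with the melanocytic score (permutation p 0.00122, adjusted p 0.00664) and rho -0.374 (permutation p 0.0366, adjusted p 0.0899). Without ΔEcad male 7 alone r was -0.31, and without ΔEcad female 2 as well it was -0.281, so the relation rests largely on ΔEcad male 7. By Pearson's r, Plat and Serpine2 passed with none of the 6 lists. Serpine2 had r 0.244 with the melanocytic score (permutation p 0.188, adjusted p 0.333), 0.363 without ΔEcad male 7 and ΔEcad female 2, but its rho was 0.479 (permutation p 0.00637, adjusted p 0.0284). With the Schwann cell score its r was -0.428 (permutation p 0.0147, adjusted p 0.0655) and rho -0.361 (permutation p 0.0429, adjusted p 0.1), and r was -0.456 with the group means out (adjusted p 0.0416).

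**Figure D5:**
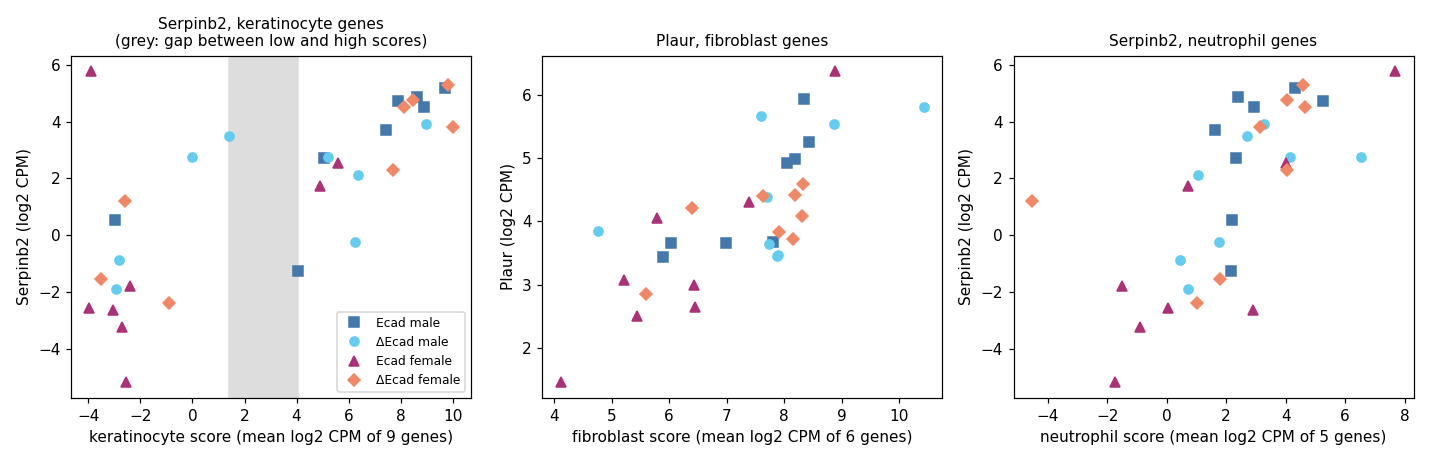
Serpinb2 against the keratinocyte score (left, the gap between 1.41 and 4.07 in grey), Plaur against the fibroblast score (middle) and Serpinb2 against the neutrophil score (right), all in log2 CPM, with 1 point per tumour. In the high keratinocyte cluster Serpinb2 climbs with the score (r 0.796), and Ecad female 4 stands at the top left.

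Other genes of the pathway were read from a list of 34, of which 24 were tested, and 0 were called by edgeR in any comparison. At an unadjusted p under 0.05 there were 6 of the 24 in ΔEcad against Ecad females, 5 higher and 1 lower, where 15.3% of all genes were, and 4 in males, all higher, where 10.2% were. In females against males there were 6 among Ecad tumours, 1 higher and 5 lower, where 16% of all genes were, and 4 among ΔEcad tumours, 2 higher and 2 lower, where 8.81% were. The median log2 fold change of the 24 between genotypes was 0.06 in females and 0.32 in males, against -0.02 and 0.11 over all genes. Plg, plasminogen itself, was at 0 to 0.1 TPM, and Fga, a fibrinogen chain, reached 3.17 TPM, both being proteins made mainly by the liver. Receptors of plasminogen were abundant, with Eno1 at a median of 765.9 TPM and Anxa2 at 587.0 TPM. Of the integrins that pair with the urokinase receptor, Itgb1 had a median of 455.0 TPM and Itgb5 73.7 TPM. Serping1, the C1 inhibitor, had a median of 170.6 TPM and A2m, the broad protease inhibitor alpha-2-macroglobulin, 0.06 TPM. ΔEcad male 1 alone held 78.1 TPM of A2m, the next tumour being at 7.81 TPM. In males it gave 7.73 on the log2 scale (SE 2.19, edgeR adjusted p 0.365), 1.28 without that tumour, and -9.17 (SE 2.68, edgeR adjusted p 0.0654) in the interaction, neither past the test. The matrix metalloproteinases Mmp14 and Mmp3 had 255.3 and 169.8 TPM, and the adhesive glycoprotein gene Vtn 2.73 TPM. The smallest adjusted p was that of St14 (matriptase, an epithelial protease) in females, at 3.93 on the log2 scale (SE 1.08, edgeR adjusted p 0.0524), and it passed under 3 of 10 alternatives. It passed in 7 of 32 fits with 1 tumour left out, and its value ran from -0.65 to 4.31 over all these settings. In males it was -1.48 (SE 0.98, edgeR adjusted p 0.588). Mean St14 was 7.21 TPM in Ecad males and 0.654 TPM in Ecad females.

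The clade B serpins are the closest relatives of Serpinb2, and several are made in the epidermis. Of 11 listed, 8 were tested and 2 were called, both with the higher level in ΔEcad females (1.16% of all genes were called in that direction), Serpinb11 at 5.86 (SE 1.47, edgeR adjusted p 0.0463) and Serpinb10 at 5.44 (SE 1.42, edgeR adjusted p 0.0497). Serpinb11 had means of 6.55 ± 7.24 and 0.0963 ± 0.163 TPM (SD, n = 8 each) and Serpinb10 of 2.97 ± 2.84 and 0.0525 ± 0.0731 TPM. Both lay at the edge of the threshold. They passed under 4 of 10 alternatives, DESeq2 among them, but not with limma voom, limma on log2 TPM, the replicate block, either pair of marker scores as covariates or a fit of only the groups compared. With each of the 32 tumours left out, Serpinb11 passed 16 times and Serpinb10 13 times. The median log2 fold change of the 8 tested clade B genes was 5.37, against 0.75 for Serpinb2 and 3.19 for Serpinb2 without Ecad female 4. Serpinb5 (maspin), the most abundant of them by mean TPM, had 5.47 (SE 1.87, edgeR adjusted p 0.109), while Serpinb8, with a median of 26.1 TPM, had 0.25 (SE 0.27, edgeR adjusted p 0.756). In the male genotype comparison the median of the 8 was -1.545, with 0 called. Between the sexes it was -4.23 in Ecad and 1.89 in ΔEcad tumours. In Ecad females 7 of the 8 were lower than in Ecad males at an unadjusted edgeR p under 0.05 (16% of all genes, in either direction). At that level 7 were higher in the female genotype comparison (15.3% of all genes, either direction) and 7 in the interaction (17.7%, either direction). In the male genotype comparison 0 were at that level (10.2%, either direction), and 1 was higher between the sexes in ΔEcad tumours (8.81%, either direction). Mean TPM of Serpinb11 and Serpinb10 was 2.23 and 3.75 in Ecad males and lowest in Ecad females. The keratinocyte score differed in the same directions, by 5.65 between the female genotypes and -7.09 between the sexes in Ecad tumours, as given above. Its difference was -3.28 between the male genotypes and 1.83 between the sexes in ΔEcad tumours. None of these differences passed (exact permutation, adjusted p 0.131 to 0.776). With the keratinocyte and melanocytic scores together as covariates, neither Serpinb11 nor Serpinb10 passed. The part of the keratinocyte score alone was not tested.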

How the data were processed

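Libraries were made with a stranded mRNA kit. The authors mapped the reads with STAR to GRCm38 (mm10 and GRCm38.p5 in the submitters' processing notes, with FastQC 0.11.5) and deposited raw counts per gene. They also deposited TPM values, which differed from counts divided by a fixed gene length by at most 0.0698% for 996 highly counted genes. Use of strand in counting and batch correction of these tumours are not given in the sources used here. Symbols and coordinates came from GENCODE on GRCm38, and sequences from RefSeq.

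Groups came from the labels, which give no batch, and p-values measure the spread between these tumours. Counts were tested with edgeR 4.0.16 (robust quasi-likelihood test, two-sided, TMM factors, filterByExpr) in 1 model of 32 tumours, adjusted by Benjamini-Hochberg over 17717 genes (common dispersion 0.624, SE the standard error). In simulated females, 91 of 100 genes with a log2 change of 4 were called, and 52 of 100 with a change of 2. Log2 CPM used a prior count of 1, and the floor of 3 counts covers counting error only. Marker lists held 9 keratinocyte, 8 melanocytic, 6 fibroblast, 7 macrophage, 5 neutrophil, 6 endothelial and 5 Schwann cell genes.

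The members and lists were chosen with earlier results of these data known. Named were the 7 genes, called genes of the other lists, the 2 of highest mean TPM in each list, and the 3 genes most correlated with each member. Score clusters, and the fit without the library labelled ΔEcad male 2, ΔEcad male 7 and ΔEcad female 3, were added after seeing the data. Alternatives used DESeq2 1.42.0, limma 3.58.1, other factors, filters, covariates and tumours. R 4.3.3 and Python were used.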

Additional observations from a re-analysis of the deposited data

Results flagged for a closer look

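The highest and lowest tumours of each group were compared with the 95% limit of Dixon's test for a group of 8, which chance passes in about 1 of 20 groups. Of 28 sets of values (7 genes in 4 groups), 2 held such a tumour. Plau in ΔEcad male 7 was at 7.94 log2 CPM (327.3 TPM), with a gap of 0.55 of the range. Serpinf1 in ΔEcad female 3 was at 9.99 log2 CPM (1405 TPM), with a gap of 0.62 of the range. ΔEcad male 7 also had the highest fibroblast score, 10.4, and the lowest melanocytic score, 0.542. ΔEcad female 3 had the lowest macrophage score, -1.47, and the lowest endothelial score, -2.12. The part of these in the 2 values was not tested.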

How the results depend on the processing

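No gene was called under any alternative, so the 5 counts of 0 did not change, and the smallest edgeR, DESeq2 or limma adjusted p of a member was 0.0573 (Serpinb2 between the sexes in Ecad, limma voom, 0.0573 to 0.990 across alternatives). Over all genes, edgeR called 213, 0, 9, 7 and 0 (genotype in females and males, sex in Ecad and ΔEcad, interaction), against 1548, 37, 1159, 44 and 1457 by DESeq2, 322, 0, 9, 7 and 201 with RLE size factors and 555, 0, 10, 7 and 284 with no filter. In females the count was 1 with either limma fit, the replicate block, fibroblast and macrophage covariates or only the groups compared, 7 with keratinocyte and melanocytic covariates and 569 without ΔEcad male 2, ΔEcad male 7 and ΔEcad female 3. The 30 log2 fold changes were not past the test, and 20 of them changed sign under some alternative. The causes were not tested. With limma voom, the signs that changed were Plau 0.36 and Plaur 0.48 in the female genotype comparison, Plat -0.26 in the male genotype comparison, Plau -0.31 in the sexes in Ecad, Plat 0.49 in the sexes in ΔEcad and Plaur 0.41 in the interaction. With limma on log2(TPM + 0.1), the signs that changed were Plat 0.21, Plau 0.58, Plaur 0.59 and Serpine2 0.19 in the female genotype comparison, Plat -0.40 and Plaur -0.19 in the male genotype comparison, Plat -0.16, Plau -0.35 and Serpinf1 -0.36 in the sexes in Ecad, Plat 0.46 in the sexes in ΔEcad and Plat 0.62, Plau 0.035, Plaur 0.77 and Serpinf1 0.11 in the interaction. With a replicate block by tumour number, the signs that changed were Plau 0.28 and Plaur 0.60 in the female genotype comparison and Plaur 0.50 in the interaction. With keratinocyte and melanocytic scores as covariates, the signs that changed were Serpine2 0.47 and Serpinb2 -1.92 in the female genotype comparison, Plaur -0.085 in the male genotype comparison, Serpinb2 1.65 and Serpinf1 -0.40 in the sexes in Ecad, Serpinf1 0.10 in the sexes in ΔEcad and Serpinb2 -1.63 and Serpinf1 0.51 in the interaction. With fibroblast and macrophage scores as covariates, the signs that changed were Serpinf1 -0.78 in the female genotype comparison and Plaur -0.011 in the male genotype comparison. Without the library labelled ΔEcad male 2, ΔEcad male 7 and ΔEcad female 3, the signs that changed were Serpinf1 -0.55 in the female genotype comparison, Plaur -0.10 in the male genotype comparison and Plat 0.061 in the sexes in ΔEcad. As differences in mean log2 CPM, the signs that changed were Plat 0.21, Plau 0.58, Plaur 0.59 and Serpine2 0.19 in the female genotype comparison, Plat -0.18 in the male genotype comparison, Plat -0.11, Plau -0.30 and Serpinf1 -0.30 in the sexes in Ecad and Plat 0.28 in the sexes in ΔEcad. With each tumour left out in turn, 14 values changed sign, with ranges of Plat -1.26 to 0.67, Plau -0.27 to 0.36, Plaur -0.37 to 0.75, Serpine2 -1.36 to 0.60 and Serpinf1 -0.55 to 1.20 in the female genotype comparison, Plaur -0.12 to 0.39 in the male genotype comparison, Plat -0.27 to 1.29, Plau -0.091 to 0.56 and Serpinf1 -0.036 to 0.73 in the sexes in Ecad, Plat -1.07 to 0.33, Serpine2 -1.54 to 0.079 and Serpinf1 -1.32 to 0.49 in the sexes in ΔEcad and Plaur -0.59 to 0.66 and Serpinf1 -1.80 to 0.012 in the interaction. Serpinb2 between the sexes in Ecad passed by exact permutation before adjustment (-3.80). The replicate block rests on tumour numbers that share only a number: of 48 pairs with the same number, 17 had deviations correlated over 0.1 and 1 tumour was closest to its own number.

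Of the relations among the genes, 5 passed, 4 to 7 with each tumour left out, and 4 by Spearman's rho. Of those with marker scores, 10 of 49 passed, 9 to 12 with each tumour left out, 14 by rho, 11 with group means out and 13 on log2 TPM. In tumours with a low keratinocyte score, Serpinb2 had r 0.309. Depth limits Serpinf2, at 0 to 25 counts, and Serpinb2 in tumours at or under 3 counts.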

Other observations

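The genes whose log2 CPM followed each member most closely over the 32 tumours were listed by Pearson's r among all tested genes. They are descriptions chosen as the highest of many, so no p is given. Serpinf1 went with Srpx2 (r 0.901, rho 0.867), Ror2 (r 0.883) and Loxl1 (r 0.858), a gene of the lysyl oxidase family, which crosslinks matrix. Plau went with Ror2 as well (r 0.838, rho 0.754), with Colec12 (r 0.822) and with Serpinf1 (r 0.81). Ror2, a receptor tyrosine kinase of the Wnt pathway, was thus near the top for both, with a median of 1.5 TPM and a range of 0.04 to 39 TPM.

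Serpinb2 went with Ankrd22 (r 0.875, rho 0.887), Stfa1 (r 0.856), a stefin that inhibits cysteine proteases, and Asprv1 (r 0.844), an aspartic protease of the upper epidermis. Asprv1 ranged from 0.22 to 2320 TPM, with a median of 36 TPM. Plaur went with Soat2 (r 0.847, rho 0.823), Apobr (r 0.806) and Irak3 (r 0.805), a regulator of Toll-like receptor signalling in myeloid cells.

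Plat had the weakest nearest genes of the 6 tested members, Syt5 (r 0.704, rho 0.727), Abhd2 (r 0.693) and Spsb4 (r 0.66). Serpine2 went with Rap2a (r 0.781, rho 0.79), Pomc (r 0.767), the precursor of melanocyte-stimulating hormone, and Med9 (r 0.763). For Serpinf2, at 25 counts or fewer, the highest were Gm43852 (r 0.778), A930024E05Rik (r 0.765) and D630033A02Rik (r 0.764).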
